A study of Homo sapiens with 29 samples.

Results

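The 633 longest genes of the DRB/TTchem-seq tables were examined in HEK293 cells, an embryonic kidney cell line. They are the rows of both tables with a listed gene width of at least 200000 bp, joined on the Ensembl identifier, and they make up 13.8% of the 4592 genes listed. Their widths ran from 200055 to 298761 bp, with a median of 238989 bp. The widest genes left out were FUT9 (199639 bp, 2.47 rpm in control cells) and LRCH1 (199873 bp, 87.9 rpm), and the narrowest ones taken were FREM2 (200055 bp, 7.38 rpm) and ST6GALNAC5 (200067 bp, 11.1 rpm). Of the 633 genes, 613 had the same width in GENCODE release 44 on GRCh38, and all 633 had a symbol there.

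The comparison was between control and THOC5-depleted cells. Control cells (shCtrl) and THOC5-depleted cells (shTHOC5) had both carried a lentiviral hairpin for 4 days, both were held for 3.5 h in 100 μM DRB, and both were given 1 mM 4SU after the inhibitor was washed out. RNA was taken 10, 20, 30 and 40 min after release, from 1 dish and 1 library per condition and time, 8 libraries in all. No library was replicated at its time. Matched by release time the libraries form 4 pairs, over which a two-sided exact permutation test cannot give a p below 0.125, and a model across genes with release time as a block was not fitted, so no p-value is given. Intervals are 95% Wilson intervals for shares and 95% order-statistic intervals for medians, and they cover only the spread between genes, which are not replicates. THOC5 is not a listed gene, so the depletion could not be checked here. Of the fixed tissue markers, the kidney genes PAX2 (57.7 rpm in control and 12.3 rpm in depleted cells) and PAX8 (6.53 and 4.00 rpm) were low, CPS1, a urea cycle enzyme of the liver and itself one of the longest genes, stood at 86.7 and 124 rpm, and the other genes of foreign tissues (PTPRC and THEMIS of T cells, TYR and MITF of melanocytes) lay between 1.44 and 88.8 rpm. Their part in the results was not tested.

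DRB blocks the kinase CDK9 and holds RNA polymerase II (Pol II) close to the promoter. When it is washed out, polymerases leave together and transcribe the gene as a wave, and 4SU, a uridine analogue built into the new RNA, shows where the wave has come to. Long genes give such a wave the longest track, and many of the longest human genes code for neuronal channels, receptors and adhesion molecules that are off in most other cells. THOC5 is a subunit of the THO complex, which acts on RNA as it is made and exported.

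Each table gives for every gene a wave peak position at each release time, inside a window that opens 2 kb before the start of the gene and closes 120 kb after it. The window thus covered at most 60% of one of these genes and 40.2% of the widest. All positions below are distances from the gene start in kb, so that the first position of the window is -2.0 kb and the last is 120 kb. The coverage of the window is in rpm, reads per 1000000, and since every window has the same length, coverage is set side by side between genes. In genes under 120 kb the window runs past the end of the gene, so the coverage and peaks of the narrower classes, and those of all listed genes, include sequence outside the gene. Peaks over 60 kb were called in 41.9% of the expressed genes of 60 to 80 kb in control cells at 40 min, against 10.6% of the expressed longest genes.

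The gene start is the outermost transcript start of the annotation, and it was not always the start of the main transcript. The Ensembl canonical transcript, the one chosen to represent a gene, began within 1 kb of the gene start in 450 of the 633 genes, 1 to 20 kb downstream in 45 and over 20 kb downstream in 138 (21.8%, against 15.5% of all listed genes). The share was 12.6% in genes of 60 to 80 kb, 13.5% in genes of 80 to 120 kb and 17.6% in genes of 120 to 200 kb. The DNA is shown at the canonical start of TBL1XR1, a subunit of the NCoR and SMRT corepressor complexes, and at both starts of PPHLN1, periphilin, a subunit of the HUSH silencing complex, since their wave peaks lay far from the gene start. The start of TCF7L2, the transcription factor of Wnt signalling, and that of WDFY4, a gene of dendritic cells that was nearly without reads, are shown beside them. Each sequence runs 5′ to 3′ on the strand of the gene on GRCh38, from 250 bases before to 50 bases after the start, with CGCG, a CpG-dense tetramer, in capitals.
TBL1XR1, canonical start, chr3:177197433-177197732, minus strand: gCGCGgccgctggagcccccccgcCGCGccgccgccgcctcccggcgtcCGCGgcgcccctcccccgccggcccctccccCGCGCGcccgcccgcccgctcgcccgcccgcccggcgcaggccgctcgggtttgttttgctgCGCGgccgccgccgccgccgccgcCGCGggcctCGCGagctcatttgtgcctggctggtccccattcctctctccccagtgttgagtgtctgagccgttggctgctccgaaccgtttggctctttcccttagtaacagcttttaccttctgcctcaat
PPHLN1, gene start, chr12:42238197-42238496, plus strand: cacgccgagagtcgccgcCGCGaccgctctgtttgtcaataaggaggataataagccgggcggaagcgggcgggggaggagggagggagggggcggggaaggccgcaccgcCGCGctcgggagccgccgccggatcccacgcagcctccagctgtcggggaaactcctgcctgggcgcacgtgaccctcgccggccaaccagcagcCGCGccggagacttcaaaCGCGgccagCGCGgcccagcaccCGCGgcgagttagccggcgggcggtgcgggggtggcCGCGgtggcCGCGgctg
PPHLN1, canonical start, chr12:42325917-42326216, plus strand: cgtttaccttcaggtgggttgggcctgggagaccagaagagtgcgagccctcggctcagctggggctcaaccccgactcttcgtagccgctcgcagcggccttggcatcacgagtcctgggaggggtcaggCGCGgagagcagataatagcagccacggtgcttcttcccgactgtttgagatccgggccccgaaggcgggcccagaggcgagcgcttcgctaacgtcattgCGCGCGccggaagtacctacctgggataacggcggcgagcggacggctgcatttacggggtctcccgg
TCF7L2, gene start, chr10:112949997-112950296, plus strand: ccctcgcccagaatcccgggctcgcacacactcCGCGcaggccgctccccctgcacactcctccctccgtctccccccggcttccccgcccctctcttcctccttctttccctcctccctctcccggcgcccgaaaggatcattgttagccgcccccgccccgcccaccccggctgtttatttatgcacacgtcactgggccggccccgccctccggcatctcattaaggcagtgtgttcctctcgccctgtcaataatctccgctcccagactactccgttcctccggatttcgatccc
WDFY4, gene start, chr10:48684623-48684922, plus strand: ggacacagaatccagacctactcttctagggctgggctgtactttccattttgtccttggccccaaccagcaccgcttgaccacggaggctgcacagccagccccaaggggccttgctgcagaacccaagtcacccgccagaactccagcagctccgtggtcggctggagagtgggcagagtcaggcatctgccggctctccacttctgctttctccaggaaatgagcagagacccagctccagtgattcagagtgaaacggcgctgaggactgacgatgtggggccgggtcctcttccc
The window at the canonical start of TBL1XR1 held 44 CpG dinucleotides at 75% GC and 8 copies of CGCG. In PPHLN1 both windows were rich in CpG, with 44 at the gene start and 31 at the canonical start. TCF7L2 had 25 CpG and WDFY4 had 10.

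CpG frequency is given as observed over expected, where 1 means no depletion. In the 35 genes that reached 100 rpm in each series and had a canonical start over 20 kb downstream, the median was 0.570 at the gene start and 0.863 at the canonical start, which was the higher of the pair in 22 of 35 genes. In the 166 genes that reached 100 rpm in each series and had a canonical start within 1 kb it was 0.828 and 0.880. With a canonical start over 20 kb downstream, 28 genes under 10 rpm in both series had medians of 0.280 and 0.479. The 75 such genes with coverage between these limits had 0.602 and 0.765. The median was thus higher at a distant canonical start in each coverage class. RefSeq promoters of the same 300 bases on GRCh38 were matched by symbol for 539 of the 633 genes, of which 383 started within 0.5 kb of the GENCODE gene start. CGCG was present in 83.3% of the 192 promoters of genes that reached 100 rpm in each series, in 61.5% of the 78 promoters of genes under 10 rpm in both, and in 49.9% of all 35116 RefSeq promoters. TATAAA, read on both strands, was found in 6.25%, 7.69% and 11.5%, and CCAAT in 35.4%, 26.9% and 34.6%. The 3679 promoters matched to listed genes of all widths gave 74.4% for CGCG, 6.74% for TATAAA and 33.1% for CCAAT. For each sequence the expressed and the silent longest genes lay on either side of that share, with CGCG lower in the silent genes. These are descriptions of the windows and say nothing of factor binding.

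Coverage was lower in each wider class of genes, and the longest genes had the least. Their median was 53.5 rpm in the control series and 71.1 rpm in the depleted series, against 161 and 176 rpm in genes of 60 to 80 kb and 110 and 132 rpm over all listed genes. In control cells 139 of the 633 (22.0%, 18.9% to 25.3%) were under 10 rpm and are called silent here, against 14.7% of all listed genes. In THOC5-depleted cells 117 (18.5%, 15.7% to 21.7%) were silent, against 11.4%. In both series 91 (14.4%) were silent, against 9.12%. At the other end, 218 (34.4%) reached 100 rpm or more in each series, the minimum that the methods of the study set for a gene to be kept, against 50.0% of all listed genes, and these are called expressed. The remaining 324 genes lay between. Within the longest genes the silent share in control cells was 18.6% of 220 genes of 200 to 225 kb, 19.1% of 183 genes of 225 to 250 kb and 27.4% of 230 genes of 250 to 300 kb, and the interval of the widest class (22.0% to 33.5%) overlapped that of the narrowest (14.0% to 24.3%).

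**Figure D1:**
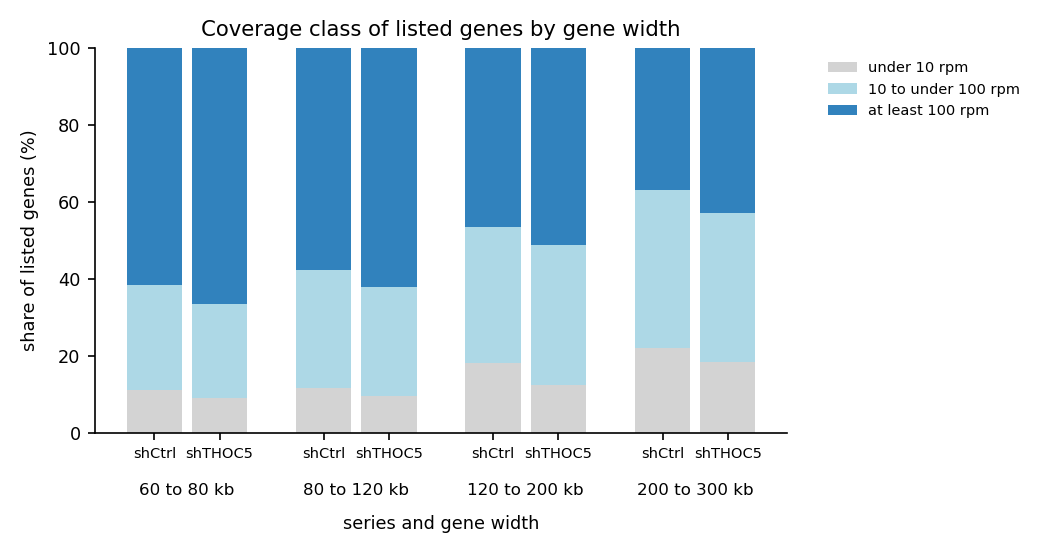
Stacked bars give the share of listed genes (percent) under 10 rpm, from 10 to under 100 rpm and at least 100 rpm, for control (shCtrl) and THOC5-depleted (shTHOC5) cells in 4 classes of gene width. The silent share in control cells was 11.0%, 11.6%, 18.2% and 22.0% from the narrowest to the widest class.

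Coverage was unequal among the longest genes. CROCC, which codes for rootletin of the ciliary rootlet, had 73572 rpm in the control series and 79996 rpm in the depleted series, 7.36% and 8.00% of all coverage and 51.9% and 52.2% of that of the 633 genes. A U1 small nuclear RNA gene, RNU1-4, lies 243 bp downstream of the annotated CROCC start on the same strand, so that the reads of both cannot be told apart there. The other RNU1 loci in the gene, 133435 and 155707 bp from its start, lie beyond the window. The CROCC canonical start was 182 kb downstream of the gene start, outside the window. The wave peak of CROCC stood between 12.8 and 13.5 kb in all 8 libraries, over 12 kb from RNU1-4. The next highest coverage was 1243 rpm in control cells, in APP, the amyloid precursor protein, and 828 rpm in THOC5-depleted cells, in ASH1L, a histone methyltransferase. Among the 218 expressed genes, depleted over control coverage had a median of 0.06 on the log2 scale, with 124 genes higher and 94 lower, and among all 2298 expressed listed genes it was 0.02, with 1171 higher and 1127 lower. These ratios carry no error, as each series has 1 coverage value per gene.

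Over all 633 genes the median wave peak of control cells lay at 5.70, 5.04, 9.61 and 9.63 kb at 10, 20, 30 and 40 min after release. The medians of depleted cells were -2.0, 3.36, 5.85 and 8.82 kb. The 218 expressed genes gave medians of 2.47, 4.76, 8.04 and 9.10 kb in control cells and of -2.0, 4.14, 5.95 and 8.57 kb in depleted cells. The middle of the distribution in control cells thus lay less than 10 kb from the start even at 40 min. The upper part was spread over the window, and at 10 min the 75th percentile of the expressed genes was 27.6 kb in control cells and 2.93 kb in depleted cells. At 40 min it was 16.1 and 17.6 kb. Peaks over 60 kb from the start were called in 39 expressed genes of control cells at 10 min and in 16 of depleted cells, and in 23 and 21 at 40 min.

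**Figure D2:**
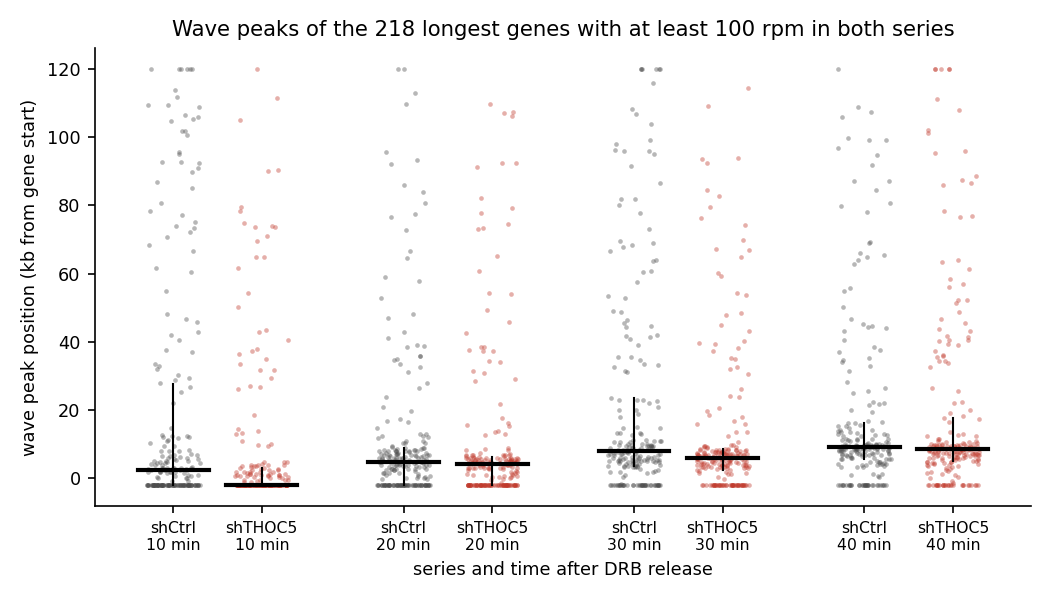
Each point is the wave peak position (kb from the gene start) of 1 of the 218 expressed longest genes in 1 library, for control (shCtrl, grey) and THOC5-depleted (shTHOC5, red) cells 10 to 40 min after DRB release. Thick bars are medians and thin bars the quartiles over genes. The median in depleted cells stood at the first position at 10 min and at 8.57 kb at 40 min.

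The row of points at -2.0 kb is made of genes whose peak was called at the first position of the window, upstream of the gene. In control cells these were 239 of 633 (37.8%) at 10 min, 207 (32.7%) at 20 min, 144 (22.7%) at 30 min and 128 (20.2%) at 40 min. In depleted cells they were 328 (51.8%), 230 (36.3%), 165 (26.1%) and 114 (18.0%). The share in depleted cells was the higher at 10, 20 and 30 min and the lower at 40 min. Among the expressed genes the shares at 10 min were 39.9% and 57.8%, and at 40 min 15.1% and 12.8%. For all expressed listed genes they were 36.3% and 54.2% at 10 min and 11.7% and 11.4% at 40 min. Of all 2298 expressed listed genes, 224 in control and 249 in depleted cells kept the peak at the first position throughout. In 29 expressed longest genes of control cells and 28 of depleted cells the peak never left the first position. Among these were GSK3B, a kinase of Wnt and insulin signalling, at 376 and 371 rpm, ASH1L at 603 and 828 rpm, and EHMT1, a histone H3K9 methyltransferase, at 408 and 390 rpm, in both series. In the 91 silent genes the share at the first position was 19.8%, 22.0%, 19.8% and 17.6% in control cells and 29.7%, 35.2%, 26.4% and 20.9% in depleted cells, below that of the expressed genes at 10 min in both series and above it at 40 min. Peaks over 20 kb from the start were called in 71.4% of the silent genes in control and 58.2% in depleted cells at 10 min, against 26.6% and 14.7% of the expressed genes.

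A wave that travels into a gene has its peak farther in at each later time. All 4 peaks were in this order in 73 of the 633 genes in control cells (11.5%, 9.27% to 14.3%), against 13.2% of all listed genes. In THOC5-depleted cells they were in order in 195 genes (30.8%, 27.3% to 34.5%), against 31.3%. Among the 218 expressed genes 47 were in order in control cells (21.6%, 16.6% to 27.5%) and 113 in depleted cells (51.8%, 45.2% to 58.4%), against 20.4% and 43.7% of all expressed listed genes. In the expressed genes of 120 to 200 kb the shares were 22.7% and 54.3%. Of the genes between, 26 and 77 of 324 were in order, and of the silent genes 0 and 5 of 91, where 0 of 91 allows a share of up to 3.30% by the limit of 3 counts and 4.05% by the Wilson interval. Order was thus more frequent with coverage in both series. The shCtrl libraries lacked it mostly at the first and last steps. From 10 to 20 min the peak moved upstream in 56 expressed genes in control and 12 in depleted cells. These were 25.7% and 5.50%, against 27.0% and 11.7% of all expressed listed genes. From 20 to 30 min it moved upstream in 36 and 11 (16.5% and 5.05%, against 19.3% and 10.3%). From 30 to 40 min it moved upstream in 74 and 27 (33.9% and 12.4%, against 31.4% and 16.9%).

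Taking the series jointly, 33 of the 218 expressed genes were in order in both (15.1%, against 15.6% of all expressed listed genes), 14 in control cells alone (6.42%, against 4.79%), 80 in depleted cells alone (36.7%, against 28.1%) and 91 in neither. The deposited rate was below 0 in 22 expressed genes of control cells (10.1%, against 6.18% of all expressed listed genes). In depleted cells it was below 0 in 1 (0.459%, against 1.65%). In the expressed genes of 120 to 200 kb, the next class, 8.93% and 1.61% had a rate below 0, and 33.8% were in order in depleted cells alone. Positions at the same time were alike between the series, with a Spearman rho over the 218 genes of 0.65 at 10 min, 0.87 at 20 min, 0.68 at 30 min and 0.68 at 40 min. Over the 91 silent genes it was 0.21, 0.46, 0.38 and 0.16. These coefficients are across genes, whose windows are the same in both series, and are given as a description.

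**Figure D3:**
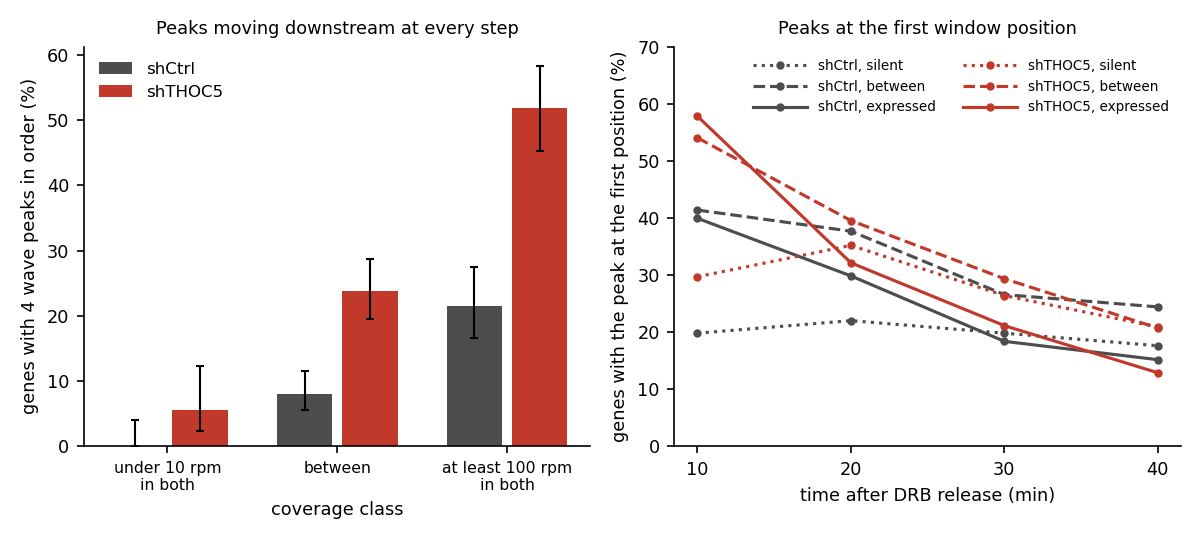
Left, the share of the longest genes (percent) whose 4 wave peaks were in order, by coverage class and series, with 95% Wilson intervals over genes; right, the share (percent) with the wave peak at the first window position against time after DRB release (min), with expressed, between and silent genes as solid, dashed and dotted lines. Order was found in 21.6% of expressed genes in the control series and in 51.8% in the depleted series.

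Some peaks lay far from the start at every time. In 28 of the 218 expressed genes (12.8%, against 22.5% of all expressed listed genes) the peak lay over 20 kb from the gene start at all 4 times in both series. The canonical transcript of 23 of these 28 began over 20 kb inside the gene, against 35 (16.1%) of the 218. Of the 518 expressed listed genes with such peaks, 183 had a canonical start over 20 kb inside and 287 within 1 kb. In 19 of the 23 the lowest of the 8 positions fell between 1 kb upstream and 5 kb downstream of the canonical start. From the lowest to the highest of the 8 positions these 23 genes spanned a median of 25.6 kb, 8 of them under 10 kb, and the widest spans were 93.7 kb in VPS41 and 82.0 kb in PCSK6. The peaks of WWTR1, which codes for the Hippo pathway coactivator TAZ and has its canonical start at 78.7 kb, lay at 80.8, 83.9, 86.6 and 87.2 kb in control cells and at 79.4, 82.1, 84.7 and 87.4 kb in depleted cells. SASH1, with its canonical start at 70.5 kb, had peaks at 74.1, 77.4, 77.9 and 92.0 kb and at 73.7, 74.6, 76.4 and 76.7 kb. In SLC25A12, RNF111 and NDUFAF6, named after their values were seen, the lowest peak lay 41.6, 101 and 78.0 kb upstream of the canonical start.

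Positions were also taken from the canonical start, a choice made after seeing the data. For the 28 expressed genes with a canonical start 20 to 118 kb inside the gene, the median position in control cells was 65.0, 39.0, 45.0 and 47.8 kb from the gene start at 10, 20, 30 and 40 min, and 4.34, 5.47, 8.00 and 9.01 kb from the canonical start. In depleted cells it was 37.7, 38.0, 40.0 and 44.9 kb from the gene start and 2.17, 3.75, 5.41 and 8.36 kb from the canonical start. The 166 expressed genes with both starts within 1 kb gave 0.36, 3.62, 6.44 and 8.37 kb and -2.0, 2.95, 4.76 and 7.58 kb. At 10 min the genes with a distant start thus had the higher medians. At 40 min 13 of the 28 (46.4%) in control and 18 (64.3%) in depleted cells had the peak between 2 kb upstream and 20 kb downstream of the canonical start, against 134 (80.7%) and 131 (78.9%) of the 166. Few of the former genes were at the first position, namely 4 of 28 in each series at 10 min, against 78 and 114 of the 166.

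**Figure D4:**
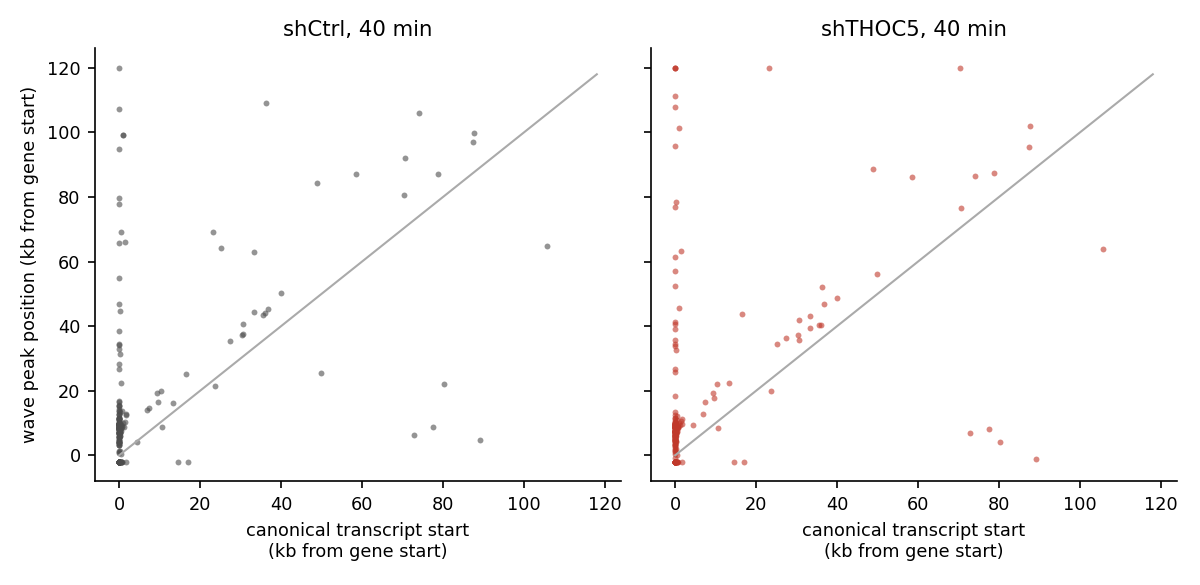
Wave peak position at 40 min against the start of the canonical transcript, both in kb from the gene start, for the expressed longest genes with a canonical start under 118 kb, in control (left) and THOC5-depleted (right) cells. The line marks equal positions, and the median of the 28 genes with a canonical start over 20 kb lay 9.01 and 8.36 kb downstream of that start.

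The other 5 of the 28 genes had their canonical start within 1 kb of the gene start and still had distant peaks. MICAL3, a monooxygenase that acts on the actin cytoskeleton, had peaks from 27.2 to 34.2 kb, and another of its 19 annotated transcript starts lay at 23.4 kb. AFF1, a subunit of the super elongation complex, had peaks from 72.9 to 79.7 kb and 1 of 11 starts at 72.2 kb. SPTBN1, a spectrin, had peaks from 105 to 120 kb and 1 of 7 starts at 102 kb, and SEPTIN9 from 42.6 to 101 kb and 1 of 46 starts at 42.0 kb. In NR6A1, an orphan nuclear receptor, the nearest of 5 starts upstream of the peaks was 107 kb away. Its peaks lay at 112, 110, 107 and 107 kb in control cells and at 111, 110, 109 and 108 kb in depleted cells, and moved downstream in neither series except at the last step in control cells. These genes were named after their values were seen. Genes with many starts often have one near any position, and whether these starts were in use was not tested. Whether coverage was counted by strand is not given in the sources used here.

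The peaks were also set against the first intron. In the 166 expressed genes with a canonical start within 1 kb, the first intron ended at a median of 34.3 kb from the gene start (quartiles 10.4 and 70.1 kb), against 18.9 kb in the 1780 such genes of all widths. The peak lay inside it in 30.1%, 49.4%, 53.0% and 59.0% of the 166 genes at 10, 20, 30 and 40 min in control cells and in 20.5%, 52.4%, 61.4% and 59.0% in depleted cells. At 40 min it lay beyond it in 40 genes of control and 44 of depleted cells, and before it in 28 and 24. Over all widths the shares at 40 min were 37.8% and 42.2%.

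THOC5 depletion was compared gene by gene as the position in depleted cells less that in control cells. Among the 218 expressed genes the median difference was -1.06 kb at 10 min (-1.93 to 0), 0 kb at 20 min (-0.95 to 0), -0.75 kb at 30 min (-1.15 to -0.29) and 0 kb at 40 min (-0.40 to 0). The peak was nearer the gene start in depleted cells in 116 genes and farther in 21 at 10 min, nearer in 107 and farther in 54 at 20 min, nearer in 131 and farther in 53 at 30 min, and nearer in 107 and farther in 84 at 40 min. The nearer shares, 53.2%, 49.1%, 60.1% and 49.1%, stood beside 49.1%, 50.7%, 57.8% and 53.4% of all expressed listed genes. The farther shares of all expressed listed genes were 13.0%, 24.5%, 25.6% and 32.9%. Differences of over 5 kb were nearer in 54 and farther in 6 genes at 10 min, beside 23.8% and 3.83% of all expressed listed genes, and in 29 and 29 at 40 min, beside 18.7% and 10.7%. Over all 633 genes, the nearer share was 45.3%, 46.8%, 54.0% and 44.1%, against 45.9%, 48.8%, 54.2% and 49.1% of all listed genes. Nearer peaks thus outnumbered farther ones among the 218 genes, least so at 40 min. The same held over all expressed listed genes, so it was not particular to the longest genes. The nearer share of the 218 was above that of all expressed listed genes at 10 and 30 min and below it at 20 and 40 min. No library could be set against a replicate.

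Many of the zero differences came from genes at the first position in both series. Without the genes at the first position in either series, the median difference was -2.44 kb at 10 min (86 genes), -1.46 kb at 20 min (140 genes), -1.16 kb at 30 min (166 genes) and -0.50 kb at 40 min (183 genes), with 71, 94, 119 and 105 genes nearer. Of the 28 expressed genes with a distant canonical start, 4 in each series had the peak at the first position at 10 min. At 20 min 2 in control and 5 in depleted cells had it there. In these 28 genes the median difference was -1.26, -1.68, -2.0 and -1.21 kb, with 19, 21, 21 and 17 genes nearer. In the 33 expressed genes in order in both series it was -1.34, -1.55, -0.99 and -0.96 kb, with 18, 24, 26 and 20 genes nearer. The choice of genes in order restricts the positions that a gene can take, and these values are a description.

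Of the genes in order in both series, those with the largest shift towards the start at 40 min were PTPN4, a tyrosine phosphatase, which had its peaks at -2.0, 1.21, 2.38 and 65.6 kb in control and at -2.0, 3.36, 5.94 and 6.02 kb in depleted cells, and ATG7, an enzyme of autophagosome formation, with -2.0, 4.01, 5.41 and 31.4 kb and -2.0, 0.45, 2.25 and 4.23 kb. In PTPN4 the depleted position was the farther at 20 and 30 min, and the control position of 65.6 kb alone set the shift. ATG5, also of the autophagy machinery, had -2.0, 1.56, 5.51 and 15.7 kb in control and -2.0, 1.24, 4.48 and 9.64 kb in depleted cells, so that each position after 10 min was nearer. The largest shifts away from the start at 40 min were in VPS41, a subunit of the HOPS tethering complex, with a peak at 69.1 kb in control and at the last position, 120 kb, in depleted cells, TTLL11, a tubulin glutamylase, at 6.09 and 32.6 kb, and BIRC6, a ubiquitin ligase that inhibits apoptosis, at 9.31 and 26.6 kb. The smallest shifts were in TCF7L2 (8.55 and 8.49 kb), ZSWIM6 (7.22 and 7.34 kb) and MNAT1, an assembly factor of the TFIIH kinase (9.38 and 9.47 kb).

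The elongation rate deposited for each gene equalled, in all 4592 genes, the least-squares slope through the 4 positions, counted from the window start, and a point at 0 kb and 0 min. A gene whose wave begins far inside the window thus gets a steep slope from that point. In the 28 expressed genes with a distant canonical start the deposited rates had medians of 1.13 kb/min (control) and 0.946 kb/min (depleted), while the slope through the 4 positions alone was 0.218 and 0.242 kb/min. In the 166 genes with both starts within 1 kb the deposited rate was 0.241 and 0.250 kb/min and the slope 0.164 and 0.253 kb/min.

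A filter mark, used as deposited, was carried by 13 of the 633 genes in control cells (2.05%, against 4.92% of all listed genes) and by 57 in depleted cells (9.00%, against 10.0%). Of the 73 genes in order in control cells 50 had at least 100 rpm, 26 of these also had a first peak at least 2 kb into the window, and 13 of these carried the mark. In depleted cells the steps were 195, 137, 68 and 57. A rate over 1 kb/min was found in 3 marked genes of control and 11 of depleted cells, and of these 2 and 7 had a canonical start over 20 kb inside the gene. In depleted cells 4 of the 11 had their 40 min peak at the last position of the window. The 10 and 46 marked genes at or below 1 kb/min had their 40 min peak no farther than 40.7 and 43.8 kb.

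In both series 5 of the longest genes (0.790%) carried the mark, against 2.40% of all listed genes. TCF7L2 (chr10:112950247-113167678, plus strand) had its peaks at 2.51, 7.07, 8.18 and 8.55 kb in control and at 0.33, 5.08, 7.44 and 8.49 kb in depleted cells. CMIP (chr16:81444808-81711762, plus strand) had them at 5.09, 8.79, 8.94 and 9.65 kb and at 3.19, 5.93, 7.76 and 8.69 kb. In both genes, which start at their canonical start, every position was nearer in depleted cells. MICAL3 (chr22:17787649-18024561, minus strand) had them at 28.9, 32.5, 33.5 and 34.2 kb and at 27.2, 31.0, 32.7 and 33.8 kb, also nearer at every time. TBL1XR1 (chr3:177019340-177228000, minus strand) had 36.9, 38.5, 39.1 and 40.7 kb in control and 33.7, 37.4, 39.7 and 41.8 kb in depleted cells, all downstream of the CpG-rich canonical start at 30.5 kb shown above. PPHLN1 (chr12:42238447-42459715, plus strand) had 92.4, 95.7, 95.9 and 99.9 kb and 90.1, 91.3, 93.6 and 102 kb, with its canonical start at 87.7 kb. In the last 2 genes the depleted position was the nearer at 10 and 20 min and the farther at 40 min.

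The deposited rates of these 5 genes were close between the series, while the slopes through the 4 positions alone were higher in depleted cells in each gene. Depleted over control, the deposited rate had a median ratio of 1.02 (range 0.956 to 1.07, lower in 1 gene), and the slope through the 4 positions alone 1.39 (1.29 to 2.24, lower in 0 genes). In TBL1XR1 the deposited rates were 0.88 and 0.94 kb/min and the slopes 0.12 and 0.27 kb/min, and in PPHLN1 2.07 and 2.12 kb/min and 0.23 and 0.38 kb/min.

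**Figure D5:**
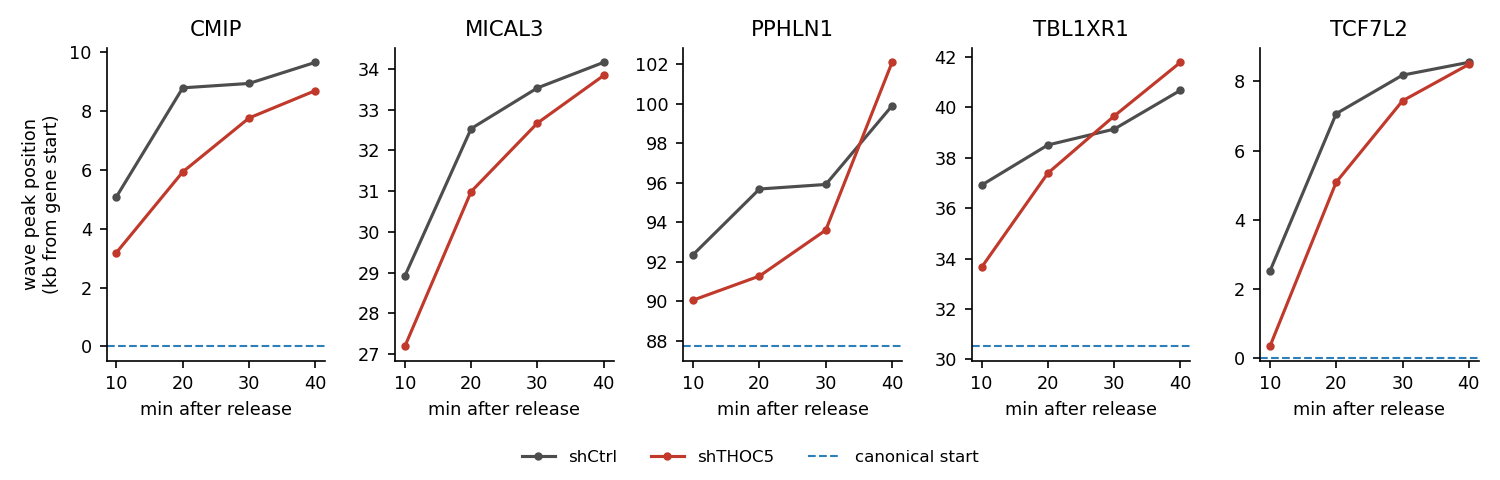
Wave peak position (kb from the gene start, own scale in each panel) against time after DRB release (min) for the 5 longest genes marked in both series, in control (grey) and THOC5-depleted (red) cells, 1 library per point. The dashed line is the start of the canonical transcript where it falls in the panel, 30.5 kb in TBL1XR1 and 87.7 kb in PPHLN1; in MICAL3 it lies at 0 kb, below the panel.

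The mark was present in control cells alone in 8 genes and in depleted cells alone in 52. Of the former, PLEKHB2 had 4.05, 9.29, 19.9 and 22.5 kb in control and -2.0, 4.88, 7.53 and 12.3 kb in depleted cells, and MBNL1, a splicing regulator with its canonical start at 25.1 kb, had 25.3, 26.5, 60.6 and 64.1 kb and 26.9, 28.6, 60.2 and 34.5 kb. NF1, the Ras GTPase-activating protein neurofibromin, had 0.19, 0.60, 1.97 and 6.52 kb and -2.0, -2.0, 2.72 and 3.25 kb. Of the latter, APP had 95.2, 4.09, 69.7 and 69.0 kb in control and 2.72, 4.53, 6.89 and 8.81 kb in depleted cells. FYN, a Src family kinase, had 105, 6.05, 34.8 and 9.19 kb and 1.67, 6.89, 8.17 and 9.59 kb, and EPB41L2, a protein 4.1 of the membrane skeleton, had 8.12, 5.48, 8.80 and 9.66 kb and 3.80, 5.17, 6.95 and 8.57 kb. Every marked gene was in order in its series, so order in the depleted series was set by the choice of these 3 genes. The choice also required that the mark be absent in control cells, which favours genes out of order there. As a description, in each of the 3 genes the control position at 10 min lay farther in than that at 20 min. In APP and FYN the control position also moved back from 30 to 40 min. SEM1, named by the same rule, had 11.8, 8.03, 8.01 and 9.70 kb and 2.44, 6.52, 7.68 and 9.50 kb. CHCHD3 had 120, 120, 67.9 and 8.04 kb in control and 0.67, 5.86, 6.54 and 120 kb in depleted cells.

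The gene lists set out by function covered 155 of the 633 genes. Ion channels and neurotransmitter receptors had 18 longest genes, of which 1 was expressed and 6 were silent, with a median of 8.08 rpm in control and 10.4 rpm in depleted cells, and the list over all widths had 8 expressed of 90. CHRNA7, the α7 nicotinic receptor, at 35.8 rpm, had its peaks from 109 to 115 kb with a canonical start at 107 kb. Adhesion and extracellular matrix genes had 1 expressed and 7 silent of 24, at 13.5 and 24.6 rpm, and that 1 was COL4A2, a basement membrane collagen, at 576 and 511 rpm. Chromatin genes had 12 expressed and 0 silent of 14, at 204 and 233 rpm, ubiquitin genes 10 and 1 of 14, kinases 12 and 2 of 20, and genes of RNA and transcription 7 and 1 of 12. Cytoskeleton and motor genes had 8 expressed and 1 silent of 21, and GTPase regulators 6 and 2 of 32. Of all 633 longest genes 34.4% were expressed and 14.4% silent. Over all widths 18 of 113 adhesion, 72 of 85 chromatin and 102 of 135 ubiquitin genes were expressed. So were 83 of 120 kinases, 76 of 95 RNA and transcription genes, 37 of 82 cytoskeletal genes and 66 of 140 GTPase regulators.

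Within these lists, expressed cytoskeletal genes were nearer in depleted cells in 7 of 8 at 10 min, 5 at 20 min, 6 at 30 min and 2 at 40 min, with 0, 1, 1 and 4 farther and median differences of -3.57, -0.82, -2.41 and 0.22 kb. The nearer shares of all expressed listed genes, 49.1%, 50.7%, 57.8% and 53.4%, are the background of these counts and of those below. The cytoskeletal genes were in order in 0 of 8 in control and 6 of 8 in depleted cells. The background of order in this paragraph is 20.4% and 43.7% of all expressed listed genes. MYO10, an unconventional myosin of filopodia, had peaks at 4.74, 6.46, 5.61 and 7.02 kb and at 1.93, 4.68, 5.84 and 7.45 kb. Of the 12 expressed chromatin genes 6, 6, 7 and 6 were nearer and 1, 3, 2 and 3 farther, with 1 in order in control and 4 in depleted cells. KDM6A, an H3K27 demethylase on the X chromosome, had -2.0, 1.01, -2.0 and 11.2 kb and -2.0, 1.62, 8.95 and 7.66 kb. Of the 10 expressed ubiquitin genes 5, 4, 6 and 6 were nearer and 1, 4, 3 and 4 farther, and USP34, a deubiquitinase, stayed at the first position up to 30 min in both series and lay at 13.6 and 4.82 kb at 40 min. Of the 12 expressed kinase genes 6, 1, 7 and 4 were nearer and 1, 5, 3 and 6 farther, and 0 were in order in control and 5 in depleted cells. Of the 83 expressed kinase genes of all widths 41, 38, 51 and 43 were nearer and 12, 22, 19 and 30 farther. In order were 15 of the 83 in control and 45 in depleted cells. These counts are small, and nothing particular to a list was tested.

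The study sorted genes by their 3′ cleavage after THOC5 depletion in Nanopore experiments on these cells, and 23 of the longest genes were in its THOC5-dependent class. The class was chosen in the same cell line and is not independent of it. Of its 16 expressed genes 2 were in order in control and 12 in depleted cells, and 13, 11, 13 and 10 were nearer in depleted cells at the 4 times. Of the 218 expressed longest genes 21.6% and 51.8% were in order and 53.2%, 49.1%, 60.1% and 49.1% nearer. Over all expressed listed genes 20.4% and 43.7% were in order and 49.1%, 50.7%, 57.8% and 53.4% nearer. Median differences of the 16 genes were -4.49, -1.41, -3.23 and -1.32 kb. These counts are small, the 16 genes were not matched to others by coverage, and nothing particular to the class was tested. The THOC5-independent class of the same list had 2 of the longest genes, both expressed, of which 2, 1, 2 and 1 were nearer. A separate list of the study, of genes with a rate, held PLEKHB2 and APBA2 as dependent and PPHLN1 and NF1 as independent, whereas PPHLN1 stood in the dependent class of the first list. APBA2, an adaptor that binds the amyloid precursor protein, had peaks at 6.37, 9.52, 10.0 and 10.2 kb in control and at 3.77, 5.72, 8.46 and 10.8 kb in depleted cells.

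The silent genes showed what the calling returns with few reads. WDFY4, at 3.17 and 1.62 rpm, had positions of 86.2, 72.9, 120 and 120 kb in control and 120, 120, 24.2 and 106 kb in depleted cells. LRFN5, a synaptic adhesion protein, at 3.07 and 5.89 rpm, had 95.5, 55.1, 14.1 and -2.0 kb and 32.2, 75.1, 67.9 and 4.41 kb. MMP26, a matrix metalloproteinase, at 3.05 and 0.89 rpm, had -2.0, 31.4, 120 and 120 kb and 10.3, 82.7, 30.7 and 7.71 kb. Between 20 and 30 min the called position of silent genes moved by over 20 kb in 68.1% of 91 genes in control and 46.2% in depleted cells, against 14.7% and 4.13% of the 218 expressed genes. No count at this depth can be given, since the reads per library are unknown.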

How the data were processed

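DRB/TTchem-seq of HEK293 cells was analysed in 8 libraries, 1 per condition and release time. For these the authors read 4SU-labelled RNA from both ends, normalized coverage to depth and called wave peaks and rates with a published pipeline. The submitters' processing notes name GRCh38, CASAVA 1.8.2, Bowtie2 2.3.4.1, minimap2 and deepTools 2.0 for the series as a whole; which aligner and annotation served these libraries, and whether strand was used, is not given in the sources used here. The deposited coverage column is named for RPKM, but its values sum to 1000000 over the listed genes and were read as RPM. Reads per library, and so the counting error, are unknown. Wave peaks were deposited as other values, namely whole positions in bp, and rates as other values in kb/min. The deposited filter mark was used as it stands.

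Positions were converted to kb from the gene start by taking off the 2 kb that the window holds upstream. Gene and transcript starts came from GENCODE 44, promoters from RefSeq and the GRCh38 genome. Comparisons were descriptive, and no model with release time as a block was fitted. The functions were tested on simulated positions. Genes were named by rule: those marked in both series; the 5 marked in each series alone and the 5 overall with the highest lower-of-the-pair coverage; among expressed genes in order in both series, the 5 largest shifts each way and the 5 smallest at 40 min; genes of the study's classes with a rate; the 5 widest silent genes; and the top 3 of each of 8 function lists. Not all of these are described. The genes and lists were chosen with earlier results of these data known. The distance to the canonical start was added after seeing the data. Alternatives changed the width and coverage limits, ties, release times, the average and the points of the fit. Python 3.11.15, numpy 2.4.6, pandas 2.3.3, scipy 1.17.1 and matplotlib 3.10.9 were used.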

Additional observations from a re-analysis of the deposited data

How the results depend on the processing

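No paired analysis by replicate number was made, since there was 1 library for each condition and time, and pairs matched by release time were not tested. No result carried a test, so each recomputed value was set against the 95% interval over genes of the reported value. For the rate ratio the range over the genes marked in both series was used. Of 151 recomputed values, 71 stayed within these limits (counts: within 1.5 times). Not all values that left them are given below, and some that are given stayed within them. The sign of the median position in depleted cells at 10 min, -2.0 kb at the first position of the window, was positive under 2 of the settings below. The silent share was 0.158%, 9.79%, 21.2% and 40.9% under limits of 1, 5, 20 and 50 rpm, and the share under the minimum in either series was 50.9% at 50 rpm and 86.6% at 200 rpm, against 65.6%. The median position at 10 and 40 min without genes at the first position was 49.1 and 14.6 kb in control and 41.9 and 11.0 kb in depleted cells, the mean over genes 32.7 and 28.7 kb and 23.0 and 29.2 kb. With expressed genes alone the control median at 10 min was 2.47 kb, and the share at the first position 57.8% in depleted cells at 10 min and 15.1% and 12.8% in control and depleted cells at 40 min.

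Genes in order numbered 30.8% in control and 61.1% in depleted cells with ties allowed. Leaving out 10, 20, 30 or 40 min gave 25.0%, 22.6%, 25.3% and 23.4% in control and 47.2%, 42.8%, 39.7% and 39.3% in depleted cells, and minima of 50, 100 and 200 rpm gave 20.3%, 21.6% and 28.2% and 47.6%, 51.8% and 55.3%. With canonical starts within 1 kb, added after seeing the data, it was 21.1% and 51.2%. Depleted cells had the higher share under each of these settings.

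The median difference of -1.06 kb at 10 min was 0 kb over all 633 genes and over the 311 genes with 50 rpm, -0.61 kb with a canonical start within 1 kb, -2.09 kb at 200 rpm, -2.17 kb in genes marked in both series, -2.44 kb without genes at the first position and -12.4 kb as a mean. That of 0 kb at 20 min was -1.55 kb in genes in order in both series, -1.98 kb in marked genes, -1.46 kb without first positions, -1.68 kb with a distant canonical start and -1.68 kb as a mean. That of -0.75 kb at 30 min was -1.16 kb without first positions, -2.0 kb with a distant canonical start and -8.87 kb as a mean. That of 0 kb at 40 min was -0.96 kb in order, -0.50 kb without first positions, -1.21 kb with a distant canonical start and 0.77 kb as a mean. Among genes that differed at 10 min, 84.7% were nearer, against 90.4% over 2 kb and 90.0% over 5 kb. The rate ratio of 1.02 in genes marked in both series was 1.39 without the point at 0 min. The rebuilt filter kept 26 genes in control cells in place of 13; the cause was not tested. Unknown depth limits every position, most of all in silent genes.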

Other observations

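The 633 genes were spread over the chromosomes, with 62 on chromosome 1, of which 26 were expressed, and 21 on chromosome X, of which 2 were. Chromosome 4 had 11 expressed of 43 and chromosome 18 had 2 of 16, while chromosome 17 had 8 of 14.

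Within the longest genes, order in THOC5-depleted cells was found in 48.8% of the 80 expressed genes of 200 to 225 kb, in 51.6% of 62 genes of 225 to 250 kb and in 55.3% of 76 genes of 250 to 300 kb, and in control cells in 21.2%, 14.5% and 27.6%. In narrower expressed genes it was 36.1%, 41.0% and 54.3% in depleted cells and 17.0%, 21.6% and 22.7% in control cells, for 60 to 80, 80 to 120 and 120 to 200 kb.

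Over the 218 expressed genes, Spearman rho of the positions between successive libraries (10 and 20, 20 and 30, 30 and 40 min) was 0.65, 0.68 and 0.67 in control cells and 0.82, 0.90 and 0.81 in depleted cells. The called position moved by over 20 kb at these steps in 36, 32 and 33 expressed genes of control cells and in 7, 9 and 20 of depleted cells. These were 16.5%, 14.7% and 15.1% in control and 3.21%, 4.13% and 9.17% in depleted cells. Over all expressed listed genes the shares were 18.5%, 15.8% and 17.3% and 7.88%, 4.87% and 10.3%. These describe 1 library each, across genes that share their windows, and the part of depth in them was not tested.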
